A study of Rattus norvegicus with 6 samples.

Results

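The clustered histone genes are the genes that build the bulk of chromatin during DNA replication and that sit together in the Hist1, Hist2 and Hist3 clusters of the rat genome. They were chosen by symbol, as every main row of the deposited array table whose gene symbol begins with Hist and a digit. Where a symbol had several rows the row of highest mean over the 6 samples was to be kept, but each symbol had 1 row, so no measured value chose the members. The set holds 30 genes of the 19634 gene symbols tested, in 30 of 20258 rows. By histone type there were 3 linker histone H1 genes, 10 H2A, 13 H2B, 1 H3 and 3 H4 genes. The Hist1 cluster on chromosome 17 held 21 of them, the Hist2 cluster on chromosome 2 held 6 and the Hist3 cluster on chromosome 10 held 3. The large rise of 1 member, Hist1h2bb, was already known when the set was proposed.

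The study compared pools of flow-sorted neuroepithelial progenitors, the cycling cells that form the neural tube, from rat embryos at stage E10.5. The 3 retinoic acid samples came from dams gavaged with all-trans retinoic acid at 60 mg/kg in ultra pure olive oil, and ERCC ExFold mix 2, a set of synthetic control RNAs, was added to them. The 3 control samples came from dams given the same amount of oil alone, and they received ERCC ExFold mix 1. The labels name neither the strain, the sorting gate, the time from dosing to collection nor the number of embryos in a pool, and the p-values rest only on the spread between the pools. All values are log2 signals of an Affymetrix-type array as normalized by the authors. Signals of different rows are not compared with each other, since each row has its own probes. Coordinates are as printed in the deposited table, for which the labels and headers name no genome build.

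Replication-dependent histone genes are transcribed mainly in S phase, when new DNA has to be wrapped into nucleosomes. Their mRNAs end in a stem-loop bound by the stem-loop binding protein in place of a poly(A) tail, and they are degraded quickly when replication stops. H2A and H2B form the dimers of the nucleosome, H3 and H4 its central tetramer, and H1 binds the linker DNA between nucleosomes. Many H2A and H2B genes stand head to head in divergent pairs that share a short promoter, and an octamer element recognised by POU factors is a known feature of H2B promoters. In a neural plate rich in cycling cells these genes are normally active.

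Promoter windows from RefSeq (build GRCr8, 250 bases before to 50 after the annotated start) were found for 27 of the 30 genes. The windows of the genes with the largest differences after Hist1h2bb (Hist1h2ba and Hist1h2af) are shown beside those of a linker histone gene and an H4 gene that were not called. Capitals mark 3 short motifs searched on both strands, the octamer ATTTGCAT, the CCAAT box CCAAT and the TATA box TATAAA.
Hist1h2ba chr17:41599662-41599961 (plus strand): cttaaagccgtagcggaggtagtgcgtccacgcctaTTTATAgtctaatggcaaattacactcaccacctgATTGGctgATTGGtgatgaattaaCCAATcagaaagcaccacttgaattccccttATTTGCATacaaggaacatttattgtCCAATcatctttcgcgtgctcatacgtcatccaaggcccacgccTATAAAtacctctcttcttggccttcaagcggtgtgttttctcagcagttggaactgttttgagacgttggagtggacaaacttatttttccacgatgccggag
Hist1h2af chr17:41807604-41807903 (minus strand): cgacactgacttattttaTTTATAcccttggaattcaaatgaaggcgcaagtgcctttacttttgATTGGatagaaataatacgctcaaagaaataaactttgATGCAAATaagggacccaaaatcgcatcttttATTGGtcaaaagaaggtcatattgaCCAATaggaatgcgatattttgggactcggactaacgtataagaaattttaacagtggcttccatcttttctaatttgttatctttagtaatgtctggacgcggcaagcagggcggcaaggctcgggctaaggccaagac
Hist1h1t chr17:41855911-41856210 (minus strand): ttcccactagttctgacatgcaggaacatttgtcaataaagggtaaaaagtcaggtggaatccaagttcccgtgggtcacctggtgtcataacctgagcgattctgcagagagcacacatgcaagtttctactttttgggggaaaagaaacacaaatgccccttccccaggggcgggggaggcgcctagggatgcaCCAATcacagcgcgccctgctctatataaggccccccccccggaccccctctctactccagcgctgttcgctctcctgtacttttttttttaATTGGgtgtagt
Hist1h4m chr17:47393514-47393813 (plus strand): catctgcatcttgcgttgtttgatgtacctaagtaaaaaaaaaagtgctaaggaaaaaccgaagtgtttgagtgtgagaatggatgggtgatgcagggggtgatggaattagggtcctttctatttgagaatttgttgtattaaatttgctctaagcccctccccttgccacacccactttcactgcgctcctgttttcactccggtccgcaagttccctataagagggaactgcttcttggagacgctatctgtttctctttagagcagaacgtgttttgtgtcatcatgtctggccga
The Hist1h2ba window held 1 octamer, 4 CCAAT boxes and 2 TATA boxes, and the Hist1h2af window held 1, 3 and 1 of them. The window of Hist1h2aa, an H2A gene that was not called, overlaps that of Hist1h2ba by 261 bases and held the same counts. The Hist1h1t window held 2 CCAAT boxes and neither of the others, and the Hist1h4m window held no match to any of the motifs. No window was matched for Hist1h2bb, Hist2h2bb and Hist2h4. Hist1h2af and Hist1h1t, on the minus strand in GRCr8, are on the plus strand in the deposited coordinates, so orientation there differs between the 2.

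Over the members, the octamer was in 11 of 27 windows (40.7%), against 1.78% of all 33469 windows of the same length. It was in 5 of 10 H2A and 6 of 11 H2B windows, and in no H1, H3 or H4 window. CCAAT stood in 24 of 27 windows (88.9%), against 37.5% of all windows. The windows without it were those of Hist1h2ao, Hist1h4b and Hist1h4m. TATAAA stood in 14 of 27 (51.9%), against 14.2% of all. In 3 divergent pairs the windows of both partners overlapped by 261 to 283 bases and shared the octamer, so these windows are not independent. Members with the octamer had a median difference of 0.34 log2 units between retinoic acid and control samples, and those without it 0.32. The H2B genes had medians of 0.34 with it and 0.43 without it, and the H2A genes 0.44 with it and 0.31 without it, so the types went opposite ways. None of these medians was tested.

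The histone genes were higher in the retinoic acid samples as a group. By limma, with Benjamini-Hochberg adjustment over all 20258 tested rows and a call at an adjusted p under 0.05, 22 of the 30 rose, where 7.69% of all tested rows rose. No member fell, where 2.06% of all tested rows fell, and 0 were lower at an unadjusted p under 0.05. In 23 of the 30 every retinoic acid sample lay above every control sample, as it did in 19.0% of all tested rows, and all 22 called genes were among them. The difference was positive in 28 members, with a median of 0.33 log2 units (1.26-fold), against a median of 0.03 over all tested rows. Called members differed by 1.20-fold to 6.73-fold, the next largest being 1.68-fold. Without Hist1h2bb the count was 21 of 29 and the median stayed at 0.33. In sorted pools, a larger share of S-phase cells and more histone RNA per cell cannot be told apart.

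Rows of higher signal were called more often throughout the array. Above the median level of 6.76, 14.0% of all rows rose, and 21 of the 25 members there did. Of the 5 members at or below that level, 1 rose. After cyclic loess normalization 12 members rose, against 4.24% of all rows, with a median difference of 0.17. After quantile normalization the same 12 rose, against 4.06% of all rows, with a median of 0.15. These 12 are Hist1h1a, Hist1h2af, Hist3h2a, Hist1h2ak, Hist2h2ab, Hist1h2bb, Hist1h2ba, Hist3h2ba, Hist2h2be, Hist1h2bh, Hist1h2bm and Hist3h2bb. The 10 that lost their call had control means of 9.32 to 13.46, and after cyclic loess their differences were 0.03 to 0.18, all positive. After a shift of each array to its spike-ins of nominal ratio 1, 3 members rose (Hist1h2bb, Hist1h2ba and Hist1h2af), against 0.197% of all rows. The median difference was then 0.37. This shift moves all rows of an array by the same amount, and the median of all rows went from 0.03 to 0.07.

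**Figure D1:**
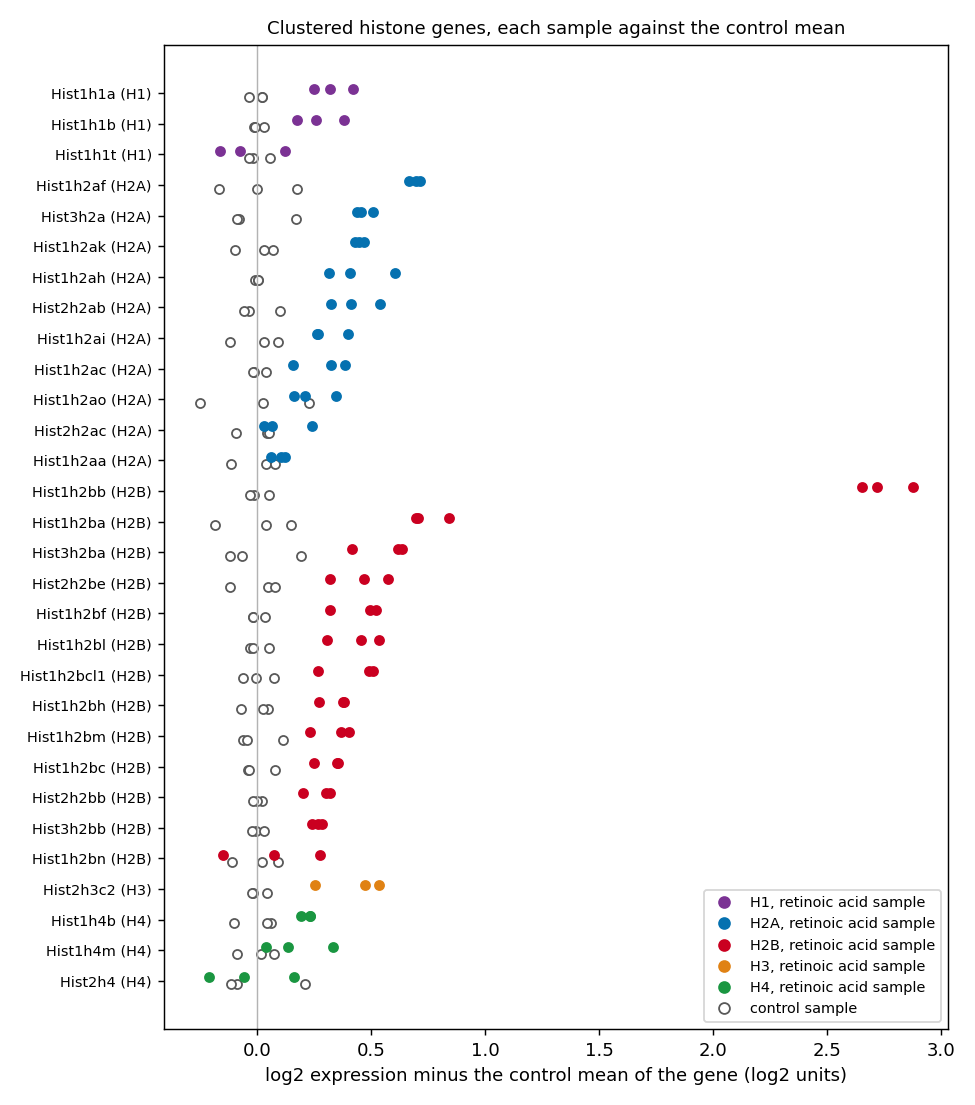
Log2 expression of each of the 30 clustered histone genes in each sample, minus the gene's control mean. Filled points are the 3 retinoic acid samples, coloured by histone type, and open points the 3 control samples. Hist1h2bb stands apart at a difference of 2.75, most H2A and H2B genes lie between 0.26 and 0.75, and the H4 genes lie at -0.04 to 0.22.

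Hist1h2bb, an H2B gene of the Hist1 cluster (chromosome 17, 48512993 to 48513373, minus strand, 381 bases), had 10.55, 10.49 and 10.71 in the retinoic acid samples and 7.82, 7.80 and 7.88 in the controls. The lowest retinoic acid sample lay far above the highest control. Its means were 10.58 ± 0.115 in the retinoic acid samples and 7.83 ± 0.044 in the controls (SD, n = 3 each). The difference was 2.75 ± 0.073 (SE), adjusted p = 8.7e-14, a 6.73-fold higher signal. It was 2.66 after cyclic loess and 2.64 after quantile normalization. No other row of the 20258 tested had a larger difference, a fact known when the genes were chosen. The row's cross-hybridization field was 0, as in every histone row, but coding sequences of H2B genes are nearly identical, and which copies the probes read was not tested.

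The rows around Hist1h2bb had smaller differences. Hist1h2af, the H2A gene that starts 301 bases from it on the other strand, had 10.57, 10.54 and 10.59 in the retinoic acid samples and 10.05, 9.70 and 9.87 in the controls. Its difference was 0.69 ± 0.080 (SE), adjusted p = 3.6e-05, or 1.62-fold, and the groups did not overlap. Hist1h2ah, an H2A gene starting at -5.813 kb from it in table coordinates, had 12.07, 12.36 and 12.16 in the retinoic acid samples and 11.75, 11.76 and 11.76 in the controls, with a difference of 0.44 ± 0.077 (SE), adjusted p = 0.0012. Hist1h1a, encoding a linker histone and 13.434 kb away, had 8.24, 8.31 and 8.41 in the retinoic acid samples and 7.95, 8.01 and 8.01 in the controls. It was higher by 0.33 ± 0.069 (SE), adjusted p = 0.0054. Of the other named rows within 20 kb, the H3-type row LOC100364555 was higher by 0.37 (adjusted p = 0.0019) and the H4-type row LOC679983 by 0.36 (adjusted p = 0.0034). A row of LOC679994 was higher by 0.34 (adjusted p = 0.0032), while another at 0.21 (adjusted p = 0.12) and a row of LOC502940 at 0.11 (adjusted p = 0.57) were not called. In all, 6 of the 8 neighbouring rows rose, by 0.33 to 0.69, where Hist1h2bb rose by 2.75. Of all tested rows 7.69% rose, and of those above the median level 14.0%. After cyclic loess, and after quantile normalization, 2 of the 8 rose, Hist1h2af and Hist1h1a, against 4.24% and 4.06% of all rows. Hist1h2ah was then at 0.18 (adjusted p = 0.10) and 0.15 (adjusted p = 0.19), without a call.

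Hist1h2ba, the H2B gene known for its expression in the testis, had 7.39, 7.52 and 7.38 in the retinoic acid samples and 6.72, 6.49 and 6.83 in the controls. The groups did not overlap, and the difference was 0.75 ± 0.083 (SE), adjusted p = 2.5e-05, or 1.68-fold. The other testis genes among the Hist1 members did not pass the test. Hist1h2aa, the testis H2A gene paired with it, had 6.26, 6.19 and 6.24 in the retinoic acid samples and 6.02, 6.17 and 6.21 in the controls, a difference of 0.10 (adjusted p = 0.49). Hist1h1t, the testis linker histone, had 6.52, 6.61 and 6.80 in the retinoic acid samples and 6.67, 6.65 and 6.74 in the controls, a difference of -0.04 (adjusted p = 0.84). In both of these the groups overlapped. LOC679983, a locus-named row of the Hist1 cluster annotated as similar to a germinal histone H4 gene, is no member. It was higher by 0.36 (adjusted p = 0.0034), and by 0.05 after cyclic loess (adjusted p = 0.69), without a call there.

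In the small Hist3 cluster all 3 members rose, with a median difference of 0.47. Hist3h2ba, an H2B gene, had 7.96, 7.98 and 7.75 in the retinoic acid samples and 7.53, 7.22 and 7.27 in the controls, a difference of 0.56 ± 0.086 (SE), adjusted p = 0.00051. Hist3h2a, an H2A gene, had 8.49, 8.54 and 8.47 in the retinoic acid samples and 8.21, 7.96 and 7.95 in the controls, a difference of 0.47 ± 0.077 (SE), adjusted p = 0.00084. Hist3h2bb, its H2B partner, had 8.29, 8.24 and 8.27 in the retinoic acid samples and 7.999, 8.03 and 7.98 in the controls, a difference of 0.26 ± 0.065 (SE), adjusted p = 0.014. None of the 3 overlapped between groups, and all stayed called after both renormalizations.

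In the Hist2 cluster 4 of 6 members rose, with a median of 0.35. Hist2h2be, encoding H2B, had 8.15, 8.40 and 8.30 in the retinoic acid samples and 7.87, 7.70 and 7.90 in the controls, a difference of 0.45 ± 0.079 (SE), adjusted p = 0.0013. Hist2h2ab, encoding H2A, had 10.52, 10.65 and 10.43 in the retinoic acid samples and 10.21, 10.07 and 10.05 in the controls, a difference of 0.42 ± 0.075 (SE), adjusted p = 0.0015. Hist2h3c2, the H3 gene and the only H3 member of the set, had 13.71, 13.99 and 13.93 in the retinoic acid samples and 13.43, 13.50 and 13.43 in the controls, a difference of 0.42 ± 0.077 (SE), adjusted p = 0.002. In these 3 genes the retinoic acid samples lay above all controls, but Hist2h3c2 differed by 0.04 after cyclic loess (adjusted p = 0.76). Hist2h2bb, an H2B gene, had 11.74, 11.83 and 11.85 in the retinoic acid samples and 11.55, 11.53 and 11.52 in the controls, a difference of 0.27 ± 0.067 (SE), adjusted p = 0.014, and 0.03 after cyclic loess. The members that did not pass the test were Hist2h2ac, an H2A gene, at 6.68, 6.50 and 6.47 in retinoic acid samples and 6.48, 6.35 and 6.49 in controls, and Hist2h4, an H4 gene, at 11.66, 12.03 and 11.81 in retinoic acid samples and 11.78, 11.75 and 12.08 in controls. Their differences were 0.11 (adjusted p = 0.44) and -0.04 (adjusted p = 0.89), with overlapping groups. Hist2h4 differed by -0.32 after quantile normalization (adjusted p = 0.055) and by -0.29 after cyclic loess (adjusted p = 0.10).

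The Hist1 members fell into 2 stretches separated by 1338.79 kb in the deposited coordinates. In GRCr8 the gap is wider, with the Hist1h2bl window ending at 41999318 and the Hist1h2ac window starting at 47174365. In the stretch at the lower coordinates (483.567 kb) 7 of 9 rose, with a median of 0.43, and in the stretch at the higher coordinates (324.84 kb) 8 of 12 rose, with a median of 0.30. After cyclic loess, and likewise after quantile normalization, 5 of 9 and 2 of 12 rose. The medians were then 0.29 and 0.13, under either. The difference between the stretches was not tested. In the lower stretch, Hist1h2bl, an H2B gene, had 11.84, 12.07 and 11.99 in the retinoic acid samples and 11.51, 11.59 and 11.52 in the controls, a difference of 0.43 ± 0.073 (SE), adjusted p = 0.0011. Hist1h2bh, another H2B gene, had 8.46, 8.47 and 8.36 in the retinoic acid samples and 8.02, 8.14 and 8.11 in the controls, a difference of 0.34 ± 0.069 (SE), adjusted p = 0.004. Neither gene overlapped between the groups. Hist1h2bl lost its call after cyclic loess (0.18, adjusted p = 0.074) and quantile normalization (0.16, adjusted p = 0.11), and Hist1h2bh kept its own.

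**Figure D2:**
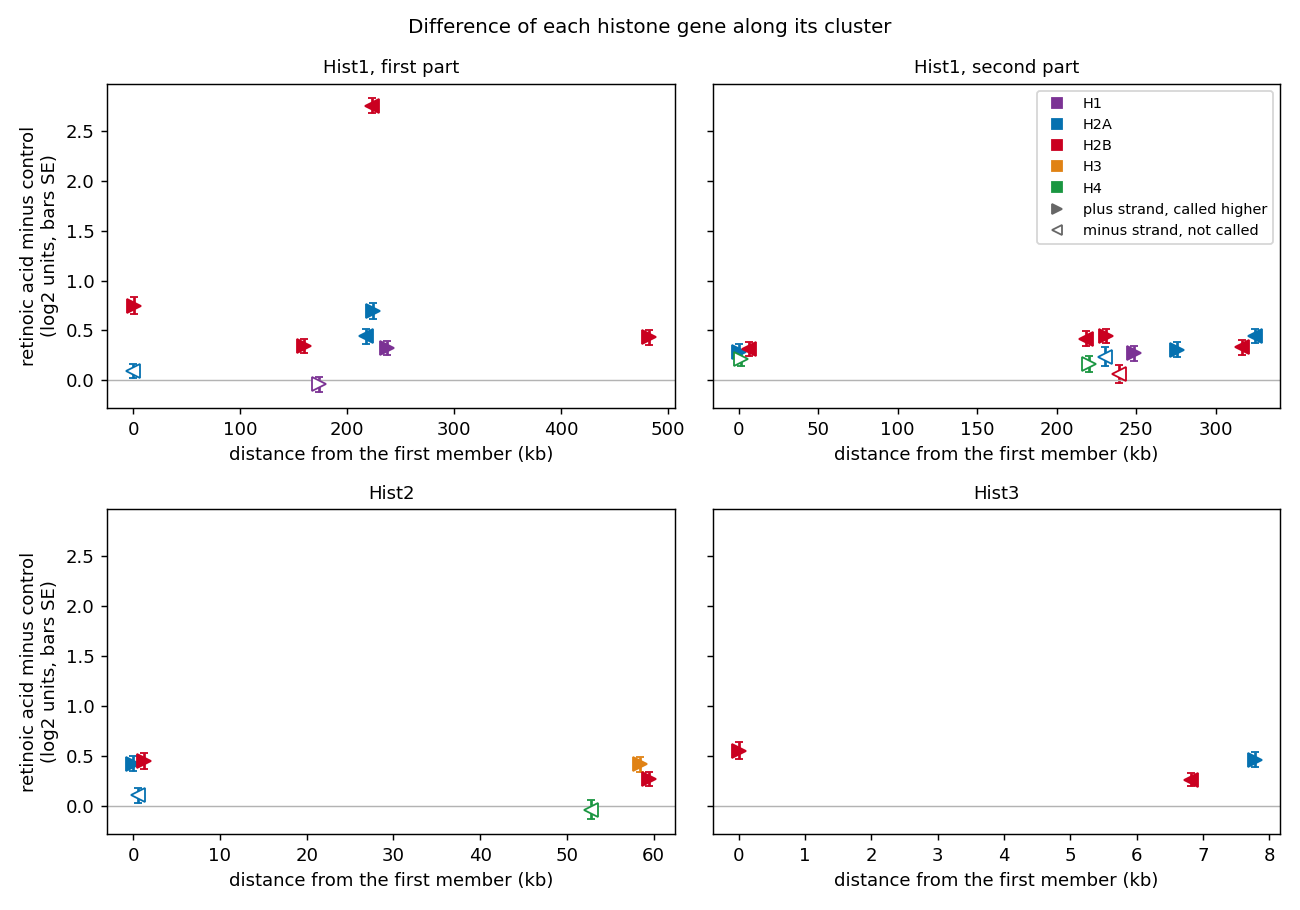
Difference between retinoic acid and control samples for each clustered histone gene, in log2 units with SE bars, against its distance in kb from the first member of its stretch or cluster. Triangles point along the strand, filled ones rose and open ones were not called. Hist1h2bb, at 2.75, stands among genes at 0.33 to 0.69.

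In the stretch at the higher coordinates, the H2A genes Hist1h2ak, Hist1h2ai and Hist1h2ac rose. Hist1h2ak had 10.82, 10.79 and 10.78 in the retinoic acid samples and 10.42, 10.25 and 10.38 in the controls, a difference of 0.45 ± 0.069 (SE), adjusted p = 0.00048. Hist1h2ai had 11.32, 11.19 and 11.19 in the retinoic acid samples and 10.81, 10.96 and 11.02 in the controls, a difference of 0.31 ± 0.074 (SE), adjusted p = 0.013. Hist1h2ac had 9.48, 9.71 and 9.65 in the retinoic acid samples and 9.36, 9.31 and 9.30 in the controls, a difference of 0.29 ± 0.073 (SE), adjusted p = 0.017. The groups stood apart in each, though only Hist1h2ak stayed called after the 2 renormalizations.

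Of the H2B genes there, Hist1h2bf had 12.50, 12.70 and 12.68 in the retinoic acid samples and 12.22, 12.17 and 12.17 in the controls, a difference of 0.44 ± 0.072 (SE), adjusted p = 0.00071. Hist1h2bcl1 had 12.79, 13.03 and 13.01 in the retinoic acid samples and 12.60, 12.52 and 12.46 in the controls, a difference of 0.42 ± 0.077 (SE), adjusted p = 0.0019. Hist1h2bc had 12.26, 12.37 and 12.37 in the retinoic acid samples and 11.97, 11.98 and 12.09 in the controls, a difference of 0.32 ± 0.069 (SE), adjusted p = 0.0067. These 3 rose without overlap, yet after cyclic loess their differences were 0.15, 0.10 and 0.04, and none was called. Hist1h2bm had 6.41, 6.38 and 6.24 in the retinoic acid samples and 5.95, 5.97 and 6.12 in the controls, a difference of 0.33 ± 0.074 (SE), adjusted p = 0.0077, and stayed at 0.33 after cyclic loess. Hist1h1b, a linker histone gene, had 10.77, 10.89 and 10.69 in the retinoic acid samples and 10.499, 10.54 and 10.503 in the controls, a difference of 0.27 ± 0.071 (SE), adjusted p = 0.021. After cyclic loess it differed by 0.09 (adjusted p = 0.43) and after quantile normalization by 0.10 (adjusted p = 0.39), without a call. On the deposited values its adjusted p was the one nearest the threshold among called members, and just outside it stood the H4 gene Hist1h4b. Hist1h1b, Hist1h2ac, Hist1h2ai, Hist2h2bb and Hist3h2bb lost their call when some single samples were left out, with adjusted p up to 0.085, 0.069, 0.085, 0.058 and 0.057.

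Hist1h4b had 8.996, 8.95 and 8.99 in the retinoic acid samples and 8.82, 8.81 and 8.66 in the controls, so its groups did not overlap, but its difference of 0.22 did not pass the test (adjusted p = 0.056). It passed with a replicate block (adjusted p = 0.044), with trend and robust moderation (0.046) and among rows above the median level (0.023), and differed by 0.15 after cyclic loess (adjusted p = 0.18). Hist1h4m, another H4 gene, had 12.26, 12.16 and 12.46 in the retinoic acid samples and 12.20, 12.14 and 12.04 in the controls, a difference of 0.17 (adjusted p = 0.23). Its difference was -0.11 after cyclic loess and -0.14 after quantile normalization, so its direction depends on the scaling. Hist1h2ao, an H2A gene, had 9.06, 8.87 and 8.92 in the retinoic acid samples and 8.74, 8.46 and 8.94 in the controls, with a difference of 0.24 (adjusted p = 0.15). Hist1h2bn, an H2B gene, had 6.49, 6.29 and 6.06 in the retinoic acid samples and 6.30, 6.10 and 6.23 in the controls, with a difference of 0.07 (adjusted p = 0.76). The groups of the last 3 genes overlapped.

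By histone type, 12 of 13 H2B members rose, with a median difference of 0.42. Of the H2A members, 7 of 10 rose, with a median of 0.37. Of the H1 members 2 of 3 rose, with a median of 0.27, and the single H3 member rose by 0.42. None of the 3 H4 members passed the test, 1 was higher at an unadjusted p under 0.05, and their median was 0.17. After cyclic loess 7 H2B, 4 H2A and 1 H1 members rose and no H3 or H4 member did, while the H4 median was -0.11 after cyclic loess and -0.14 after quantile normalization. Differences between types were not tested, and the H4 and H3 members are few. Rows under locus names are not counted here, and among them the H4-type LOC679983 rose by 0.36. By name or current symbol, the H3-type LOC100364555 rose by 0.37 and a row of LOC679994 by 0.34. Another row of LOC679994 (0.21), LOC680498 (0.15) and LOC691496 (0.12) are H3-type by current symbol and were not called. After cyclic loess LOC679983, LOC100364555 and the risen row of LOC679994 were at 0.05, 0.13 and -0.01, without a call.

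**Figure D3:**
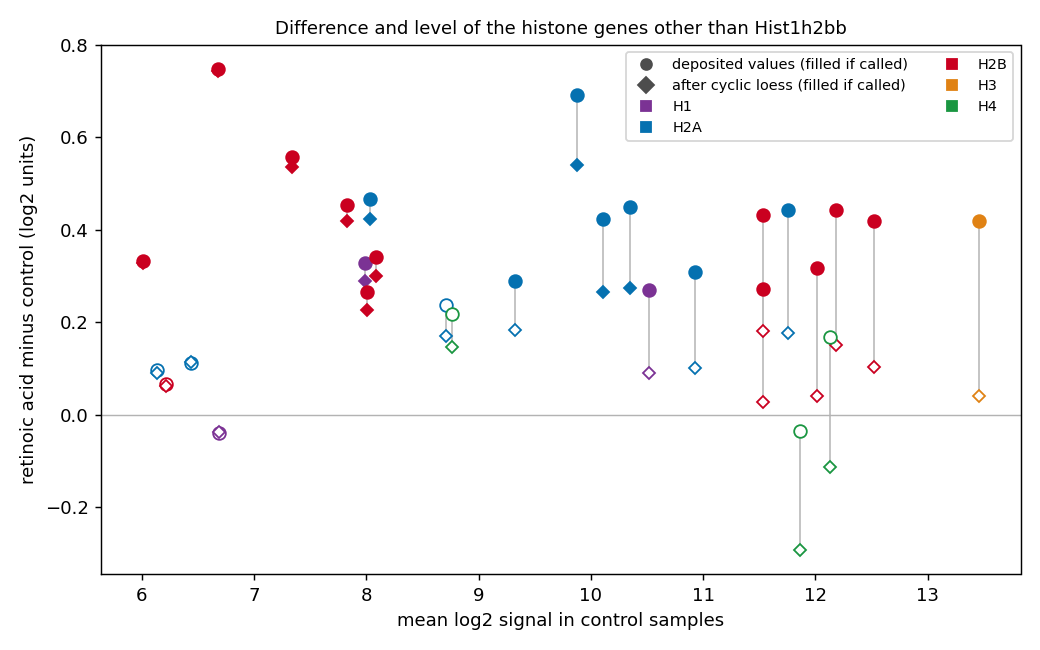
Difference between retinoic acid and control samples (log2 units) against mean log2 signal in controls, for the histone genes other than Hist1h2bb. Circles are the deposited values and diamonds those after cyclic loess, filled where the gene rose. The difference shrinks most for genes of high signal, and the 10 genes that lose their call have control means of 9.32 to 13.46.

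The shift of the set was present in each retinoic acid sample. The median deviation of the 30 genes from their control means was 0.30, 0.38 and 0.33 in retinoic acid samples 1, 2 and 3, against 0.02, -0.03 and 0.01 in control samples 1, 2 and 3. Over all tested rows the median deviations were 0.0415, 0.0206 and 0.0405 in retinoic acid samples 1, 2 and 3. Over the tested rows above the median level they were 0.0449, 0.0997 and 0.0414, so retinoic acid sample 2 was highest there too. Whether its lead in the histone genes differs from that in other rows of high signal was not tested. Retinoic acid sample 2 was the highest of its group for 14 of the 22 called genes, and the others for 4 each. Control samples 1, 2 and 3 were the highest for 9, 6 and 7.

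Among the members, 5 divergent H2A/H2B pairs could be compared, each with starts 218 to 301 bases apart. For each, the log2 signal of the one gene minus that of the other was taken in every sample and compared between groups by a two-sided exact permutation test. The smallest p that 3 samples against 3 allow is 0.1, so no pair could pass a threshold of 0.05. Hist1h2bb differed by 2.06 more than Hist1h2af (2.75 and 0.69), Hist1h2ba by 0.65 more than Hist1h2aa (0.75 and 0.10) and Hist2h2be by 0.34 more than Hist2h2ac (0.45 and 0.11). In each of these 3 pairs the samples of the groups did not overlap (exact p = 0.1, or 0.167 after Benjamini-Hochberg adjustment over the 5 pairs). Hist1h2aa and Hist2h2ac lay below the median level of 6.76 in every sample, where 1 of 5 members rose. Whether their low signal limits the difference seen was not tested. Hist1h2bf differed by 0.21 more than Hist1h2ao (0.44 and 0.24), and Hist3h2a by 0.20 more than Hist3h2bb (0.47 and 0.26). In these 2 pairs the groups overlapped (exact p = 0.3, adjusted 0.3). In 4 of the 5 pairs the H2B gene had the larger difference, and in the Hist3 pair the H2A gene did. Pairs with a locus-named partner went the other way, with the larger difference in the H2A row. These were LOC680322 over Hist1h2bc (0.50 and 0.32), LOC100360754 over Hist1h2bn (0.47 and 0.07) and Hist1h2ac over LOC100365976 (0.29 and 0.15). Hist1h2bn lay below the median level of 6.76. Whether H2B or H2A partners differ more was not tested.

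**Figure D4:**
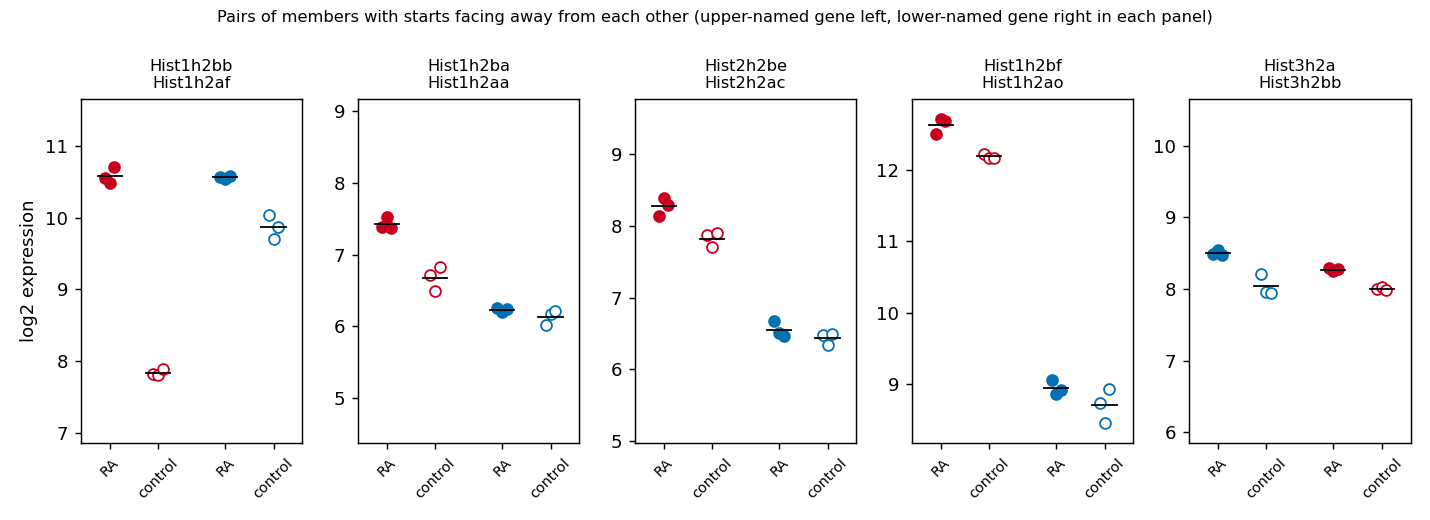
Log2 expression of both genes of the 5 divergent pairs in each sample, H2B in red and H2A in blue. Filled points are retinoic acid samples, open points controls and bars group means. The partners differ most in the Hist1h2bb and Hist1h2af pair, where retinoic acid lies above control by 2.75 and 0.69.

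Other rows named as histones lie in the same clusters under locus names and so are no members. There were 12, described after their values were seen, of which 7 rose and none fell, with a median of 0.35. Of all tested rows 7.69% rose and 2.06% fell. LOC100910200, annotated as H2B type 1-C/E/G-like, averaged 8.18 ± 0.098 in retinoic acid samples and 7.26 ± 0.265 in controls (SD, n = 3 each), a difference of 0.91 (adjusted p = 2.5e-05). The H2A-type rows LOC690131, LOC680322 and LOC100360754 were higher by 0.55, 0.50 and 0.47. After cyclic loess 2 of the 12 rose, against 4.24% of all rows, and after quantile normalization 3, against 4.06%.

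In 5 lists of genes related to histone supply and to the cell cycle the median differences were 0.15 to 0.21, and no gene fell. Of the variant histones 4 of 9 rose, with a median of 0.21. They were H3f3b, encoding H3.3 (0.39), H2afx, the H2A.X of the DNA damage response (0.31), H2afz, encoding H2A.Z (0.24), and the linker histone gene H1fx (0.22). Another row of H3f3b differed by 0.18 and was not called. Of the genes for histone transcription and mRNA processing 2 of 12 rose, with a median of 0.15. Lsm10, a subunit of the U7 particle that cuts histone mRNA, was higher by 0.31, and Eri1, a nuclease that binds the stem-loop, by 0.27. Slbp, the stem-loop binding protein gene, differed by 0.23 (adjusted p = 0.078), and Npat, the coactivator of histone transcription, by -0.04 (adjusted p = 0.82). Neither passed the test. Of the histone chaperones 5 of 17 rose, with a median of 0.21. The nucleosome assembly genes Nap1l1 and Nap1l4 were higher by 0.31 and 0.28, the FACT subunit genes Supt16h and Ssrp1 by 0.29 and 0.27.

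Of the S-phase genes 11 of 43 rose, with a median of 0.16. Prim1, the primase catalytic subunit, was higher by 0.71, Pcna, the sliding clamp, by 0.38, the clamp loader gene Rfc4 by 0.39 and Rpa3, of the single-strand binding complex, by 0.31. Of the mitosis genes 1 of 13 rose, Cdk1, the kinase that drives entry into mitosis, by 0.31, and the median was 0.15. After cyclic loess 4 S-phase genes and 1 processing gene rose, and no variant, chaperone or mitosis gene. The list medians were then 0.012 for variants, 0.031 for processing, 0.078 for chaperones, 0.036 for S phase and -0.025 for mitosis, and after quantile normalization 0.013, 0.029, 0.073, 0.032 and -0.025. The same call in all tested rows was 7.69% before and 4.24% after it. The part of S-phase share in the histone difference was not tested.

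**Figure D5:**
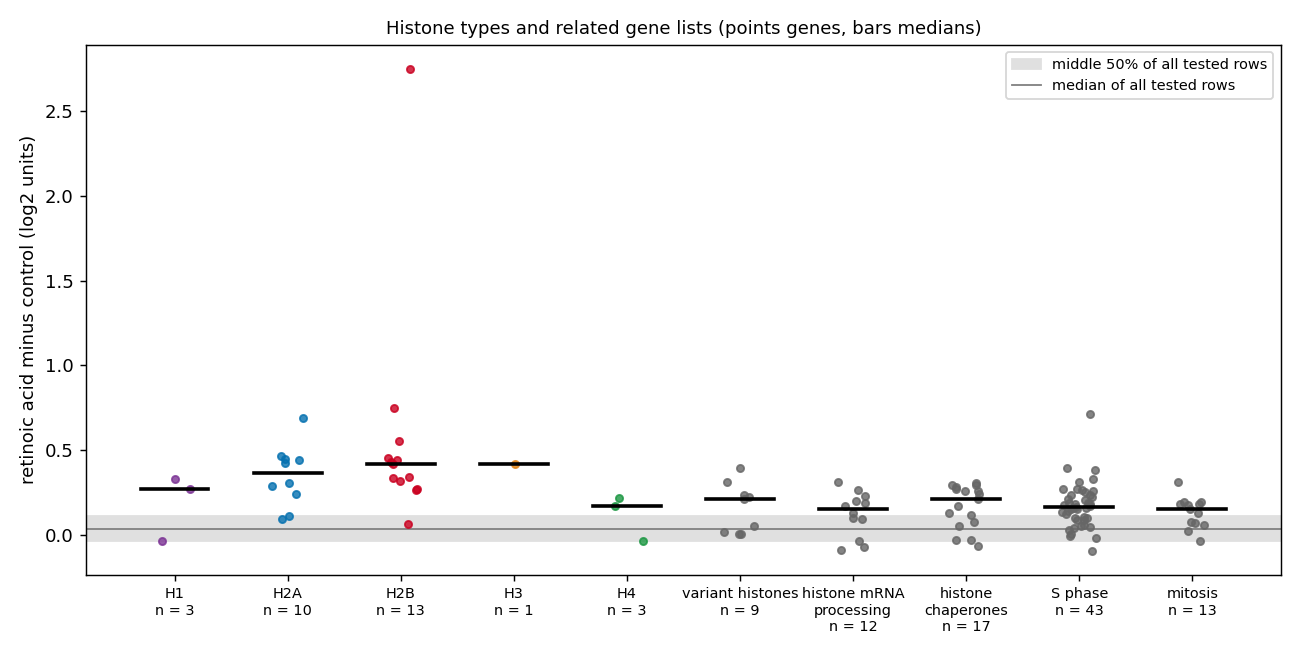
Difference between retinoic acid and control samples (log2 units) for each gene of the 5 histone types and of 5 related lists, with medians as bars. The grey band is the interquartile range of all tested rows around their median of 0.03. The medians are 0.27 for H1, 0.37 for H2A, 0.42 for H2B and 0.17 for H4, with the single H3 gene at 0.42, against 0.15 to 0.21 for the related lists.

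Markers of several cell types moved with the treatment. Of 8 neuroepithelial markers (Sox1 and Sox3 were not analysed here) 4 rose (Sox2, Pax6, Fabp7 and Vim) and none fell, with a summed linear signal of 10060.4 to 11309.8 in retinoic acid samples against 8389.91 to 9385.94 in controls. Nes, another marker of these cells, averaged 6.73 in retinoic acid samples and 6.72 in controls (adjusted p = 0.97). All 6 cardiac markers rose, with sums of 1403.02 to 1485.4 in retinoic acid samples against 689.277 to 701.129 in controls. Of 6 erythroid markers 3 rose, with sums of 16284 to 17905.8 in retinoic acid samples against 12228.7 to 14409.3 in controls. Of 4 endothelial markers 3 fell, with sums of 1125.45 to 1260.05 in retinoic acid samples against 1725.01 to 1824.09 in controls. Of 7 mesodermal markers 1 rose and 3 fell, with sums of 3019.22 to 3242.51 in retinoic acid samples against 3496.31 to 3749.58 in controls. A single gene made up much of some sums, Hbe1 93.2% of the erythroid, Vim 68.7% of the neuroepithelial and Prrx1 53.8% of the mesodermal sum. The sums weigh each row by its own probes, so they compare groups within a list and not genes. No marker was listed at 0 in any sample. Of all tested rows 7.69% rose and 2.06% fell. After cyclic loess 3 neuroepithelial, 2 erythroid, 6 cardiac and 1 mesodermal markers rose, and 4 endothelial and 4 mesodermal markers fell. The counts were the same after quantile normalization. The neuroepithelial median went from 0.19 to -0.016 after cyclic loess and to -0.017 after quantile normalization. The part of the markers in the histone result was not tested.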

How the data were processed

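Total RNA of 6 pools was hybridised to 1-colour arrays after biotin labelling, per the labels' protocols. The authors deposited log2 expression values already normalized between arrays. Per the file headers, the t and B columns are the authors' scores and the p-value columns hold their unadjusted and adjusted p. Of tools, the submitters' processing notes list limma. The array design, summarisation, normalization, spike-in handling and build were not given in the sources used here. Columns named WT were read as the controls of that number, and their values equal those of the series' value table for these samples.

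Of 29656 rows, 20258 main rows with a gene name were fitted by lmFit and eBayes (limma 3.58.1, R 4.3.3) as retinoic acid minus control, two-sided and without a block, with Benjamini-Hochberg adjustment over those rows. Sample medians ran from 6.73 to 6.79. Correlations were 0.9965 to 0.9974 within groups and 0.9937 to 0.9947 between them. Precision is limited by having 3 arrays per group. The members and gene lists were chosen with earlier results of these data known. Named genes are every called member, the members of highest and lowest difference per type among those not called, both genes of a divergent pair with a called gene, and up to 4 called genes of each list by smallest p. List genes took the row of highest mean. Linear sums of markers add 2 to the power of the log2 values. Entrez identifiers matched 28 of 30 members to RefSeq (GRCr8), where 19 carry another symbol now. Alternatives were a replicate block, trend and robust moderation, quantile and cyclic loess normalization, median centring, a shift to the 23 spike-ins of nominal ratio 1 (from general knowledge of the product), array weights, other row filters and row choices, the authors' statistics, and leaving out each sample. The fit was tested on simulated data. Tables were read with pandas 2.3.3 in Python 3.11.15 and figures drawn with matplotlib 3.10.9.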

Additional observations from a re-analysis of the deposited data

Results flagged for a closer look

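Rows of the table without a gene name were not used in the comparisons, and 12 of them lie within the outer bounds of the histone clusters, 1 of these in the gap between the Hist1 stretches. In a fit over all 29489 main rows, 4 of the 12 rose with every retinoic acid sample above every control sample, and 2 fell. Of all rows in that fit 5.10% rose and 2.80% fell. On chromosome 17, the row at 48499351 to 48499659 (309 bases) was higher in retinoic acid samples by 0.31 (adjusted p = 0.011), the row at 50391276 to 50391587 (312 bases) by 0.33 (adjusted p = 0.0088) and the row at 50339149 to 50339460 (312 bases) by 0.36 (adjusted p = 0.0096). On chromosome 2, the row at 191045014 to 191045406 (393 bases) was higher by 0.50 (adjusted p = 0.00037). Their retinoic acid means were 12.27, 12.96, 13.96 and 13.49, against control means of 11.96, 12.63, 13.60 and 12.99. These 4 rows were not fitted after cyclic loess or quantile normalization. The 10 members that lost their call there had control means of 9.32 to 13.46. The lengths of 312 and 393 bases are those of Hist1h4m and of Hist2h2ab in the same table, and no gene is named for these rows here. The rows that fell did so by 0.51 (125 bases) and by 0.97 (129 bases, chromosome 17, 48888514 to 48888642, in the gap, 115.42 kb past the members at the lower coordinates).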

How the results depend on the processing

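No member was called lower in any alternative, but the number called higher depended on normalization. It was 12 of 30 after quantile normalization, 12 after cyclic loess and 3 after the shift to the spike-ins of nominal ratio 1, where Hist1h2bb, Hist1h2ba and Hist1h2af remained, the median difference was 0.37 and 40 of all tested rows rose. The cause was not tested. Leaving out single samples gave 19 to 20 calls. Calls were lost, with the adjusted p in parentheses, by Hist1h1b without retinoic acid 1 (0.0501), retinoic acid 2 (0.0852), control 1 (0.0743), control 2 (0.0500378) or control 3 (0.0654), by Hist1h2ac without retinoic acid 2 (0.0691), retinoic acid 3 (0.0597), control 2 (0.0605) or control 3 (0.0588), by Hist1h2ai without retinoic acid 1 (0.0619) or control 1 (0.0847), by Hist2h2bb without retinoic acid 3 (0.0582) or control 3 (0.0502) and by Hist3h2bb without control 1 (0.0573) or control 3 (0.0522). Hist1h2ao was called without control 3 (adjusted p = 0.030). The fit with a replicate block called 23, Hist1h4b being the addition (adjusted p = 0.044). Hist1h4b was also called under trend and robust moderation (0.046) and among rows above the median level (0.023), where 21 of the 22 calls are shared. Samples of the same number had correlations of -0.11, 0.23 and 0.24 in their deviations, and those of different numbers -0.37 to 0.20. With 3 samples per group these values cannot tell whether the numbers mark a pairing. Trend and robust moderation gave 23, and the remaining settings 22. Hist1h2bb, Hist1h2ba and Hist1h2af were called in every setting, and 10 members in every setting other than the spike-in shift. Signs turned only in members not called: Hist1h4m was at -0.14 after quantile and -0.11 after cyclic loess normalization, and Hist2h4 at 9.2e-05 after the spike-in shift. Hist2h4 was at its lowest after quantile normalization (-0.32, adjusted p = 0.055) and cyclic loess (-0.29, adjusted p = 0.10), without a call. With single samples left out, Hist1h1t ran from -0.12 (without retinoic acid 3) to 0.022 (without retinoic acid 1), Hist1h2bn from -0.039 (without retinoic acid 1) to 0.17 (without retinoic acid 3), and Hist2h4 from -0.13 (without retinoic acid 2) to 0.067 (without control 3). Each symbol had 1 row, so the choice of row could not change a member.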

Other observations

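Of 21 named histone rows outside the clusters, 8 rose and 1 fell, described after their values were seen. Of all tested rows 7.69% rose and 2.06% fell. The one that fell was a row of LOC689408, annotated as similar to H2A family member V (chromosome 5, 102351331 to 102351394). It averaged 9.62 ± 0.020 in retinoic acid samples and 10.86 ± 0.041 in controls (SD, n = 3 each), a difference of -1.24 (limma, adjusted p = 2.0e-09). Another row of LOC689408 on chromosome 14 differed by 0.07 and was not called (adjusted p = 0.74). LOC100361076, an H4 replacement-like row on chromosome 4, averaged 10.60 ± 0.088 in retinoic acid samples and 10.01 ± 0.123 in controls, higher by 0.59 (adjusted p = 0.00012). RGD1562378, an H4 variant row on the same chromosome, differed by 0.20 and was not called (adjusted p = 0.10). None of the 3 H4 members passed the test, while the H4-type row LOC679983 in the Hist1 cluster rose by 0.36. The H3.3B-like rows LOC100364712 and LOC100359421 were higher by 0.48 and 0.28.

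In RefSeq GRCr8 the gene facing Hist1h2af is LOC102549061, and the promoter windows of the pair overlap by 241 bases. Whether it is the gene that the table calls Hist1h2bb was not tested.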
